A study of Mus musculus with 23 samples.

Results

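The genes described here are 32 genes of cholesterol and fatty acid synthesis, chosen by name: 7 enzymes of the mevalonate steps, 10 enzymes from squalene to cholesterol, 5 genes of the control of sterol-regulated transcription, 6 of fatty acid synthesis and desaturation, and 4 of sterol transport and efflux. Of the 32 genes, 31 had a probe set named by 1 symbol, out of 18193 such genes on the array, and 30 passed a filter on dim genes and were tested, out of 12516 genes tested. Acat2 is not analysed here. Tmem97, a sterol-binding membrane protein gene, lay under the filter with group means of 5.54 to 6.24 log2 units.

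The samples were sorted CD4+ T cells of mice, in 9 groups and on 23 Affymetrix M430v2 expression arrays, with 1 pool of mice on each array. LP Treg (Foxp3-GFP+, 2 arrays) and LP Tconv (Foxp3-GFP-, 2 arrays) were CD4+ cells of the small intestinal lamina propria of C57BL/6-Foxp3/GFP mice, whose green fluorescent protein marks cells that transcribe Foxp3, the factor that defines regulatory T (Treg) cells. Homeostatic Foxp3+ (3 arrays) and Homeostatic Foxp3- (3 arrays) cells were the progeny of BDC2.5/NOD/Foxp3-GFP- CD4+ cells, taken from the spleen and the lymph nodes of NOD RAG-/- hosts, which lack T and B cells of their own, 14 days after intravenous transfer. DEC CD25+ (3 arrays) and DEC CD25- (4 arrays) cells were the progeny of CD4+CD25- cells of HA6.5/Thy1.2/RAG-/-/Balb/c mice 3 weeks after transfer into Balb/c hosts that had 1 injection of DEC-HA peptide at 50 ng per mouse. They were sorted by CD25 and not by Foxp3. LN CD103+Klrg1+, LN CD103+Klrg1- and LN CD103-Klrg1- cells (2 arrays each) were Foxp3-GFP+ cells of the peripheral lymph nodes (LN) of the same reporter strain. All mice were labelled male and were 6 to 10 weeks old, and an array held RNA of 4 to 6 mice in the LP and LN groups, 2 to 3 in the homeostatic groups and 5 to 10 in the DEC groups. All sorts took CD3+, B220-, CD8a-, CD11b/c-, CD4+ cells. Strain, T cell receptor, host and origin differ together between the LP and LN, homeostatic and DEC groups, and tissue and cell isolation differ together between LP and LN, so none of these can be told apart. The labels do not say that the pools of a group were made in separate experiments, so p-values measure the spread between these arrays, which may be technical.

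Cholesterol is made from acetyl-CoA through mevalonate, squalene and lanosterol. When sterols are low in the endoplasmic reticulum, the escort protein Scap carries the precursors of the factors Srebf1 and Srebf2 to the Golgi, where they are cut and released to raise transcription of the synthesis enzymes; Insig1 and Insig2 hold Scap back when sterols are high. Oxidised sterols activate the LXR receptors, which raise transcription of the efflux transporters Abca1 and Abcg1 and of Mylip, which encodes a ligase that degrades the LDL receptor. T cells draw on these pathways for membrane when they grow and divide.

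Values are log2 of the deposited intensities, so 1 unit is a 2-fold difference. Levels are compared between groups, and where genes of a list are called its brightest, this orders their probe sets and not the amounts of their RNA. The median intensity of an array lay between 63.7 and 81.1. The dimmest arrays were DEC CD25- replicates 3 and 4, at 68.5 and 63.7, and DEC CD25- replicate 3 also had the largest excess of the 3' over the 5' Gapdh probe set, 6.59 log2 units against 1.63 to 3.92 on the other arrays. All 6 T cell markers with a probe set lay above the filter in every group. Foxp3 averaged 11.21 ± 0.18 in LP Treg and 4.65 ± 0.11 in LP Tconv (SD, n = 2 each), 10.42 ± 0.07 in Homeostatic Foxp3+ and 4.76 ± 0.05 in Homeostatic Foxp3- (n = 3 each), and 10.47 ± 0.09 in DEC CD25+ (n = 3) and 7.97 ± 0.71 in DEC CD25- cells (n = 4). In the LN subsets it averaged 11.20 ± 0.44 in CD103+Klrg1+, 10.83 ± 0.35 in CD103+Klrg1- and 10.35 ± 0.39 in CD103-Klrg1- cells (n = 2 each).

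The promoters of 4 of the genes are shown first. Hmgcs1, Idi1 and Nsdhl are enzymes of sterol synthesis. Abca1 is the efflux gene with the widest span of group means among the 31 genes. Hmgcs1 and Idi1 did not pass the test described below, though Idi1 did under some alternatives. The 250 bases before the transcription start were searched on both strands for a sterol regulatory element, TCACNCCAC, to which the Srebf factors bind, and for the CCAAT box, CCAAT, to which their partner factor NF-Y binds. The genes and both motifs were picked after the values below had been seen. Sequences are RefSeq's on GRCm38.p6, written 5' to 3' on the strand of the gene, with every match in capitals; ATTGG is the CCAAT box on the other strand, and no matches overlapped in the 4 promoters.
Hmgcs1 at chr13:119690101-119690350 (plus strand): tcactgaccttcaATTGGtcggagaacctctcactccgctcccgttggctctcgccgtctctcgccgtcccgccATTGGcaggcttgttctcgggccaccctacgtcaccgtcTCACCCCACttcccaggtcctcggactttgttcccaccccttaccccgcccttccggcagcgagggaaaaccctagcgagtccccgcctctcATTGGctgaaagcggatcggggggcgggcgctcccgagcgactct
Idi1 at chr13:8885356-8885605 (plus strand): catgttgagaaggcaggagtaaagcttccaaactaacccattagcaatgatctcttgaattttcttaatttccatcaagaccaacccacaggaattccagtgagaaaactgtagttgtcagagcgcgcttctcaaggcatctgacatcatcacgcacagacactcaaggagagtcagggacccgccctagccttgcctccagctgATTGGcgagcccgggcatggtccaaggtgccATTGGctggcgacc
Nsdhl at chrX:72918271-72918520 (plus strand): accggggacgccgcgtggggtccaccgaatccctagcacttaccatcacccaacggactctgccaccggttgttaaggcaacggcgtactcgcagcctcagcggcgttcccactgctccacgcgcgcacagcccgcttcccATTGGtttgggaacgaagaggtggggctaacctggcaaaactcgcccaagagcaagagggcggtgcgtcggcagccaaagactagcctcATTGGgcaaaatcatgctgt
Abca1 at chr4:53159896-53160145 (minus strand): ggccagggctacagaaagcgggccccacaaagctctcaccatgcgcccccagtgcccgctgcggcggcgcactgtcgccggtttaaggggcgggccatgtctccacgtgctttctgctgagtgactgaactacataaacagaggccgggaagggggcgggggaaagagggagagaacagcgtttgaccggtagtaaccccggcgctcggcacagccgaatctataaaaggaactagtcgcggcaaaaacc
The sterol regulatory element stood 137 bases before the start of Hmgcs1 and in none of the other promoters shown. It was found in 1 of the 25 listed genes with an entry, against 331 of all 27025 genes (1.22%) and 346 of all 32851 promoters (1.05%). CCAAT boxes began 237, 176 and 45 bases before the start in Hmgcs1, 45 and 14 before it in Idi1 and 109 and 20 before it in Nsdhl, while the Abca1 window held 0. Of the 25 genes, 19 had a CCAAT box in at least 1 of their promoters, among them 13 of the 14 sterol enzymes with an entry, against 37.5% of all 27025 genes and 33.8% of all 32851 promoters. A match is a description of these letters and does not show that a factor binds there.

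Across the 9 groups, the mean of the sterol enzymes was highest in the gut cells and lowest in the DEC progeny. The mean log2 level of the 16 measured enzymes, from Hmgcs1 to Dhcr7, was 9.06 ± 0.02 in LP Treg and 9.14 ± 0.12 in LP Tconv (SD, n = 2 each). It was 8.52 ± 0.06 in Homeostatic Foxp3+ and 8.32 ± 0.11 in Homeostatic Foxp3- cells (n = 3 each), and 8.18 ± 0.18 in DEC CD25+ (n = 3) and 7.81 ± 0.34 in DEC CD25- cells (n = 4). The LN subsets averaged 8.45 ± 0.29 (CD103+Klrg1+), 8.41 ± 0.20 (CD103+Klrg1-) and 8.42 ± 0.22 (CD103-Klrg1-), with n = 2 each. The 4 LP arrays, at 9.05 to 9.23, lay above all other arrays, which reached 8.65 at most. After quantile normalization of the arrays the LP arrays, at 8.92 to 9.03, also lay above the others, which reached 8.62. At the low end the groups were not separated by array. The DEC arrays together lay at 7.49 to 8.34, while the LN arrays began at 8.24 and the Homeostatic Foxp3- arrays at 8.20. The LP Treg and LP Tconv arrays overlapped, as did the 3 LN subsets. In all 3 LN subsets the array numbered 1 was the higher, at 8.55 to 8.65, and the array numbered 2 the lower, at 8.24 to 8.27.

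**Figure D1:**
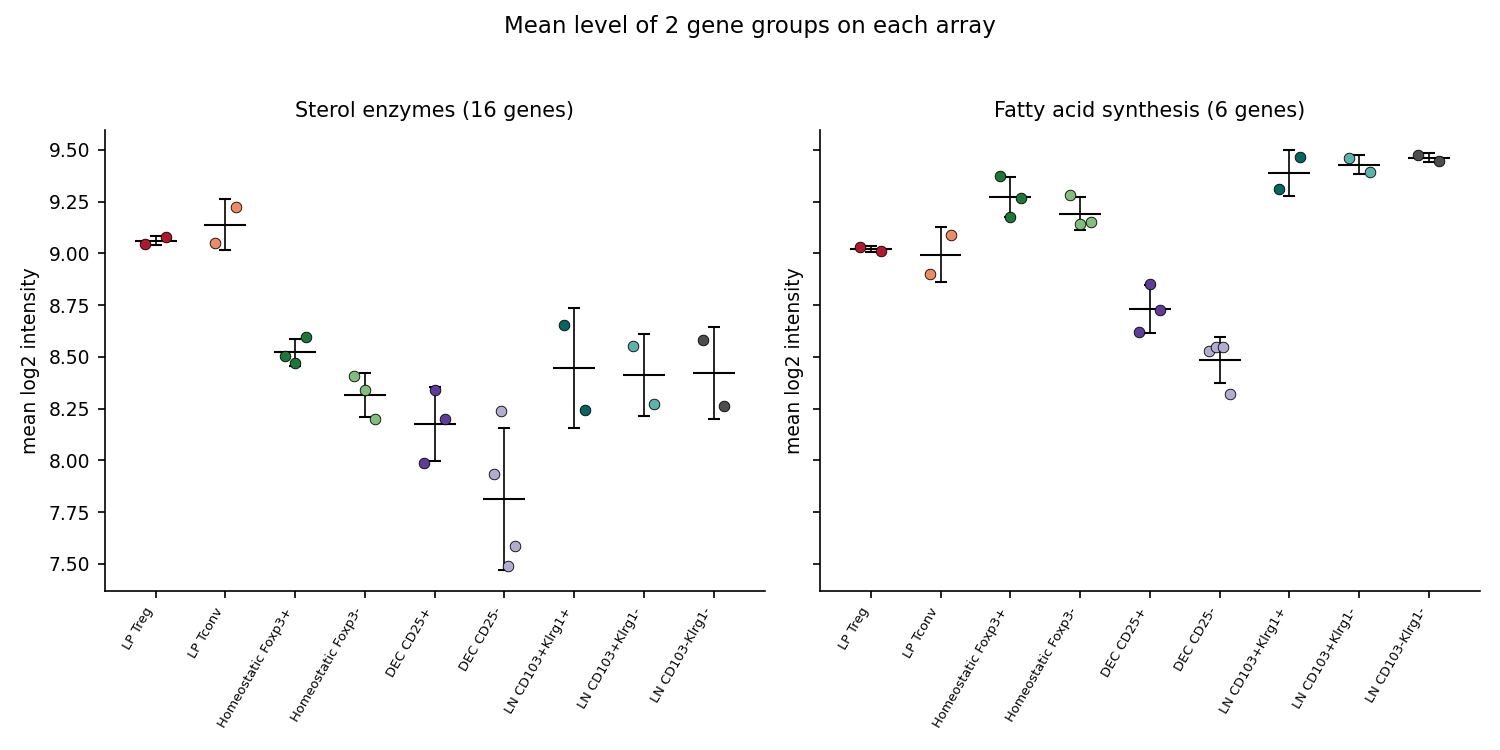
Mean log2 intensity of the 16 sterol enzymes (left) and of the 6 fatty acid synthesis genes (right) on each of the 23 arrays; points are arrays, long bars group means and whiskers the SD. Sterol enzymes sit at 9.05 to 9.23 on the 4 LP arrays and at 8.65 or lower on all others. The mean of the 6 fatty acid synthesis genes is highest in the LN subsets.

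One of the 2 LP groups had the highest group mean for 13 of the 16 sterol enzymes (81.2%, against 29.2% of all genes tested), and one of the 2 DEC groups the lowest for 12 of 16 (75.0%, against 37.7%), each time DEC CD25-, the group with the 2 dim arrays. After quantile normalization, 5 enzymes were highest in LP Treg and 7 in LP Tconv, and 4 were lowest in DEC CD25+ and 7 in DEC CD25- cells. The 3 enzymes with another highest group were Hsd17b7 and Ebp, highest in Homeostatic Foxp3+ cells, and Dhcr7, highest in LN CD103-Klrg1- cells. The genes named in this and the next paragraphs for their levels alone were picked after the values had been seen. Group means of a gene spanned 0.34 to 3.37 log2 units, with a median of 1.53, against 1.01 for all genes tested. Acly, the citrate lyase that supplies cytosolic acetyl-CoA, varied least, from 12.25 in Homeostatic Foxp3+ to 12.59 in LN CD103+Klrg1- cells.

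**Figure D2:**
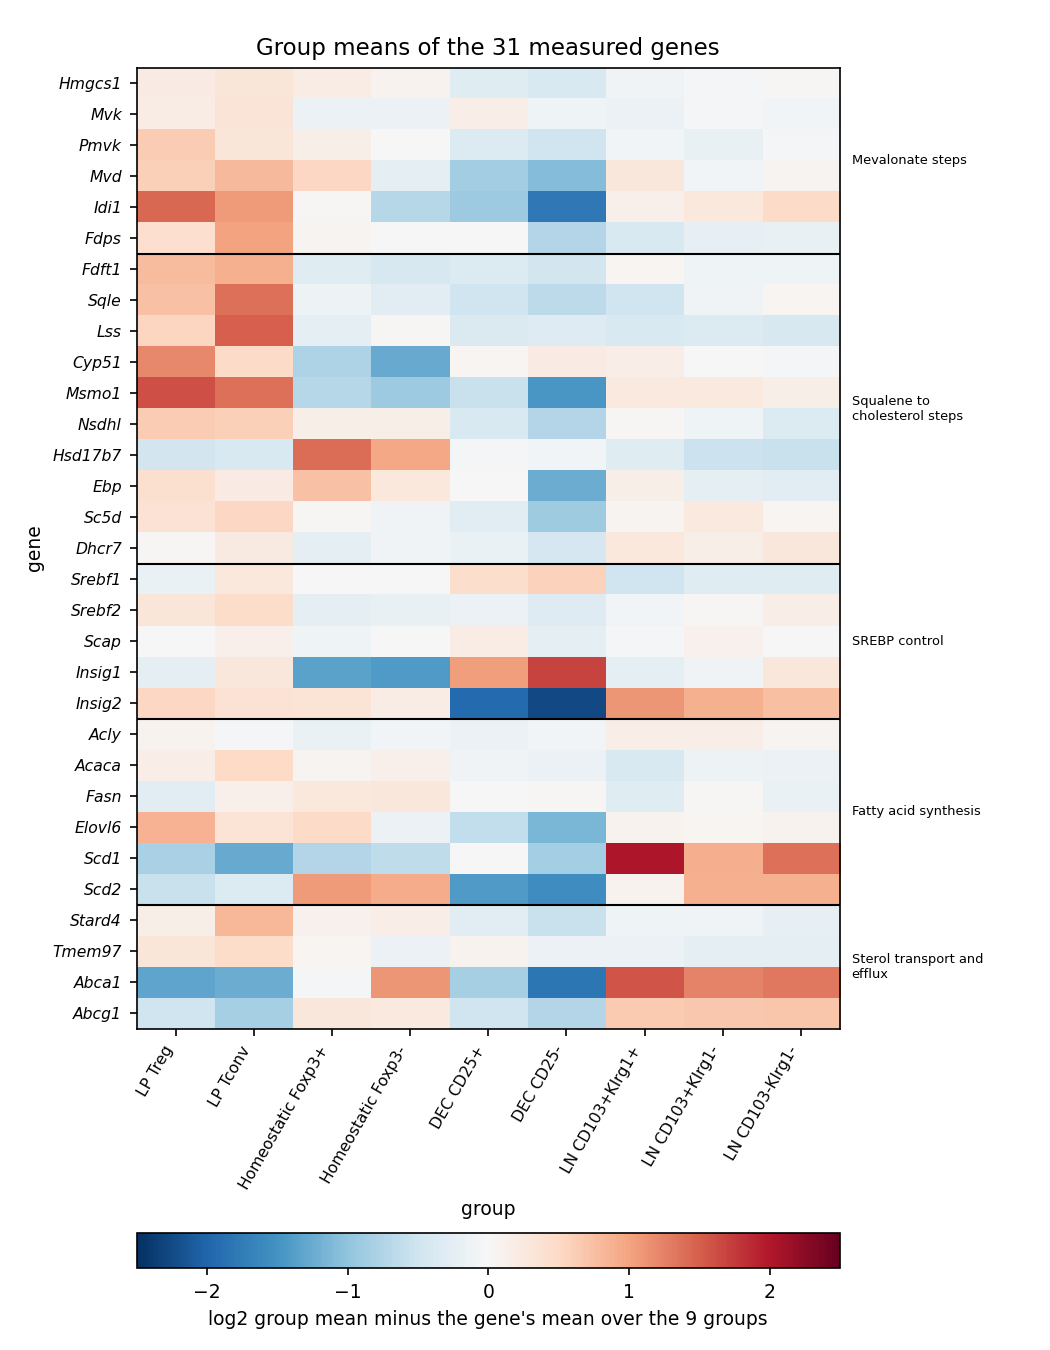
Group means of the 31 measured genes in rows, ordered by role, over the 9 groups in columns; colour is the log2 group mean minus the gene's mean over the 9 groups. The sterol steps are red in the 2 LP columns except Hsd17b7 and, in LP Treg, Dhcr7, which is near white. Abca1 and Scd1 are blue there and red in the 3 LN columns, and Insig1 and Insig2 run in opposite directions in the 2 DEC columns.

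Among the mevalonate enzymes, Idi1, which interconverts the isoprenoid units isopentenyl and dimethylallyl diphosphate, varied most. Its values were 11.18 and 10.47 in LP Treg and 10.77 and 10.13 in LP Tconv. They were 9.23, 9.50 and 9.54 in Homeostatic Foxp3+ and 8.37, 9.07 and 8.60 in Homeostatic Foxp3- cells, and 8.57, 8.58 and 8.30 in DEC CD25+ and 8.21, 7.95, 7.36 and 6.88 in DEC CD25- cells. The 6 LN arrays lay from 9.45 to 9.96, below the 4 LP arrays. They overlapped with the Homeostatic Foxp3+ arrays and lay above the arrays of the 3 other transferred groups. A second Idi1 probe set also stood higher in LP Treg than in both LN subsets compared, by 0.79 (CD103+Klrg1+) and 0.42 (CD103-Klrg1-). Hmgcs1, the synthase of an early step whose promoter holds the sterol regulatory element shown above, varied little between groups, with means of 10.59 (DEC CD25-) to 11.27 (LP Tconv), a span close to the SD of 0.60 between the LP Tconv arrays.

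Msmo1, a methyl oxidase of the steps after lanosterol, gave 9.04 and 8.77 in LP Treg, 8.29 and 9.07 in LP Tconv, 7.20 to 7.89 on the 6 LN arrays, 6.04 to 6.76 on the 6 homeostatic arrays and 4.82 to 7.38 on the 7 DEC arrays. The 4 LP arrays were the highest, the LN arrays lay above the homeostatic arrays, and the DEC arrays spread from within the LN range to under the filter of 6.27. Sqle, the squalene epoxidase that makes the first oxygenated step, gave 9.57 and 9.69 in LP Treg and 10.06 and 10.47 in LP Tconv, above the 19 other arrays, which lay from 7.59 to 9.24. Cyp51, the lanosterol demethylase, had its lowest means in the homeostatic groups, at 8.37 ± 0.18 in Foxp3+ and 7.89 ± 0.17 in Foxp3- cells (n = 3 each). It gave 10.49 and 10.22 in LP Treg and 10.45 and 8.82 in LP Tconv. The second LP Tconv array lay below the 6 LN arrays, at 9.02 to 9.37, and the 7 DEC arrays ran from 8.37 to 9.91. Hsd17b7, which reduces a keto group in the same branch, was highest in the homeostatic groups. It gave 10.42 ± 0.23 in Homeostatic Foxp3+ and 9.98 ± 0.24 in Homeostatic Foxp3- cells, against group means of 8.46 to 8.98 in the 7 other groups.

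Of the other enzymes of these steps, Lss, the cyclase that makes lanosterol, gave 8.63 and 8.59 in LP Treg and 8.91 and 10.20 in LP Tconv, against 7.23 to 8.27 on the 19 other arrays. Fdft1, the squalene synthase, gave 8.96 and 9.39 in LP Treg and 9.38 and 9.19 in LP Tconv, against 7.33 to 8.80 on the 19 other arrays. For both genes the 4 LP arrays were thus the highest of the 23. Fdps, which makes farnesyl diphosphate, and Mvd, which decarboxylates mevalonate diphosphate, had their highest mean in LP Tconv and their lowest, 6.07 and 6.13, in DEC CD25- cells, under the filter. Pmvk, Sc5d, Ebp and Nsdhl spanned 1.13 to 1.97 log2 units between group means, and Dhcr7, the last reductase, and Mvk, the mevalonate kinase, spanned 0.70 and 0.47.

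The 6 genes of fatty acid synthesis and desaturation were ordered otherwise in their mean, though not gene by gene. Their mean was 9.02 ± 0.01 in LP Treg and 8.99 ± 0.13 in LP Tconv (SD, n = 2 each), against 9.39 ± 0.11 in LN CD103+Klrg1+, 9.43 ± 0.05 in LN CD103+Klrg1- and 9.46 ± 0.02 in LN CD103-Klrg1- cells (n = 2 each). After quantile normalization the Homeostatic Foxp3+ mean, 9.31, lay above that of LN CD103+Klrg1+ cells, 9.29. The lowest means were again those of the DEC progeny, 8.73 ± 0.12 in CD25+ (n = 3) and 8.49 ± 0.11 in CD25- cells (n = 4). Acaca, the carboxylase that makes malonyl-CoA, and Fasn spanned 0.87 and 0.59 log2 units between group means, while Scd1, Scd2 and Elovl6 spanned 3.29, 2.63 and 2.02. Gene by gene, 3 of the 6 were higher and 3 lower in LP Treg than in LN CD103-Klrg1- cells, with a median difference of -0.05. Against LN CD103+Klrg1+ cells 3 were higher and 3 lower too, with a median of -0.02. The lower mean of LP Treg came mostly from Scd1 and Scd2, whose differences are given below. Stard4, a carrier of cholesterol between membranes, gave 9.98 and 8.94 in LP Treg and 9.83 and 10.46 in LP Tconv, against 7.73 to 9.66 on the 19 other arrays, so LP Treg overlapped with them.

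The genes that control the pathway were less variable, with 1 exception, the Insig pair. Srebf1 ran from 7.69 ± 0.27 (LN CD103+Klrg1+, n = 2) to 8.77 ± 0.50 (DEC CD25-, n = 4), Srebf2 from 8.12 ± 0.45 (DEC CD25-, n = 4) to 8.90 ± 0.30 (LP Tconv, n = 2), and group means of Scap spanned 0.43 log2 units. Insig1, itself a target of the Srebf factors, gave 8.61, 9.16 and 9.58 in DEC CD25+ and 8.92, 9.49, 10.79 and 9.85 in DEC CD25- cells. It gave 6.39, 7.11 and 6.70 in Homeostatic Foxp3+ and 6.31, 6.98 and 6.72 in Homeostatic Foxp3- cells, and 7.63 to 8.86 on the 10 LP and LN arrays. Insig2, which has the same retention role, ran the other way, with 7.53, 7.52 and 6.98 in DEC CD25+, 7.53, 7.34, 6.97 and 6.31 in DEC CD25- and 9.28 to 10.43 on the 16 other arrays. All 3 Insig2 probe sets were lower in both DEC groups than in any other group, the other 2 with highest DEC means of 6.60 and 7.51 against lowest other means of 8.77 and 8.80. Neither Insig gene differed by the test between the paired sorts of any system, and the DEC cells are the only ones on a Balb/c background, so strain, receptor and treatment cannot be told apart.

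**Figure D3:**
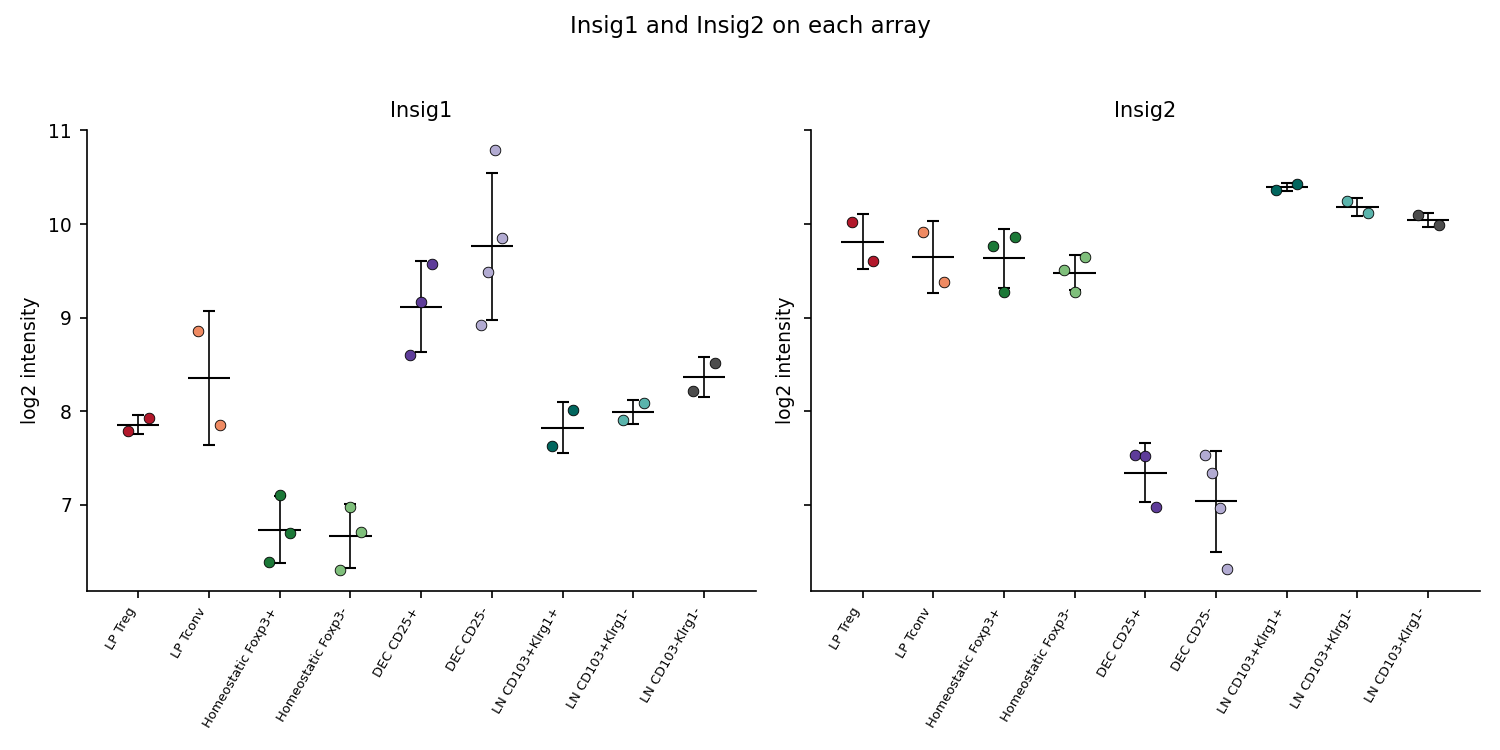
Log2 intensity of Insig1 (left) and Insig2 (right) on each array by group; points are arrays, long bars group means and whiskers the SD. Group means of Insig1 are highest and those of Insig2 lowest in the 2 DEC groups, where Insig2 does not exceed 7.53 while it is at least 9.28 elsewhere.

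LP Treg cells were compared with the CD103-Klrg1- Treg cells of the lymph nodes of the same reporter strain. Of the 30 genes tested, 6 passed an adjusted p of 0.05 (limma, Benjamini-Hochberg over 12516 genes), 2 higher and 4 lower in LP Treg, where 4.55% of all genes tested passed, 2.43% higher and 2.13% lower. Both efflux transporters, Abca1 and Abcg1, and both desaturases, Scd1 and Scd2, fell, while Elovl6, the elongase of long-chain fatty acids, and Nsdhl, a sterol dehydrogenase, rose.

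Abca1, the transporter that hands cholesterol to apolipoprotein A-I, gave 6.44 and 7.18 in LP Treg against 8.97 and 9.92 in LN CD103-Klrg1- cells. The groups did not overlap, and the lower LP Treg array lay just above the filter of 6.27. The difference was -2.64 ± 0.48 (log2, SE; n = 2 each), 6.22-fold lower in LP Treg, with an adjusted p of 0.0027 by limma. The other 2 Abca1 probe sets lay under the filter in all 9 groups and could not test this. Abcg1, which moves cholesterol to lipoprotein particles, gave 8.94 and 9.20 in LP Treg against 10.26 and 10.26 in LN CD103-Klrg1- cells, a difference of -1.19 ± 0.22 with an adjusted p of 0.0026 by limma. Its second probe set was lower in LP Treg too, by 0.63 log2 units in size, at 6.63 against 7.26.

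Scd1 and Scd2, the stearoyl-CoA desaturases that make monounsaturated fatty acids, are closely related genes whose probe sets could pick up each other's RNA. Scd1 gave 6.40 and 5.79 in LP Treg against 7.80 and 8.78 in LN CD103-Klrg1- cells. The LP Treg mean lay under the filter, so the difference of -2.20 ± 0.46 is a lower bound in size, at least 4.59-fold lower (adjusted p 0.0070 by limma). A fold change given as a lower bound, here and below, is one only with respect to the filter level. It does not cover the spread between arrays, with which the size can be smaller. Scd2 gave 9.88 and 10.01 in LP Treg against 11.34 and 11.46 in LN CD103-Klrg1- cells, a difference of -1.45 ± 0.39 (adjusted p 0.037 by limma). Both genes separated the 2 groups on every array, as Abca1 and Abcg1 did, which 23.2% of all genes tested showed as lower. The 2 other Scd2 probe sets differed in the same direction, by -0.57 and -0.42, and the other Scd1 probe set lay under the filter in all 9 groups. The Scd2 probe set with -0.42 was dim, with means of 5.92 in LP Treg, under the filter, and 6.34 in LN CD103-Klrg1- cells.

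Elovl6 gave 9.35 and 9.58 in LP Treg against 8.84 and 8.50 in LN CD103-Klrg1- cells, a difference of 0.79 ± 0.21 (adjusted p 0.039 by limma). Nsdhl gave 9.66 and 10.09 in LP Treg against 8.98 and 8.79 in LN CD103-Klrg1- cells, a difference of 0.98 ± 0.27 (adjusted p 0.047 by limma). Neither gene overlapped between the groups. Of the 16 sterol enzymes, 15 had a difference above 0 and 13 had both LP Treg arrays above both LN CD103-Klrg1- arrays, which 30.0% of all genes tested also did, but Nsdhl alone passed the test. Msmo1, with a difference of 1.45 ± 0.51 (adjusted p 0.14 by limma), Cyp51, with 1.26 ± 0.43 (adjusted p 0.13), and Idi1, with 0.95 ± 0.36 (adjusted p 0.18), differed by about as much or more without passing. At an unadjusted p under 0.05 there were 7 of the 16, against 14.6% of all genes tested. The median difference of the 16 was 0.68, against 0.05 for all genes tested. The 5 control genes had a median difference of 0.01, and 0 of them passed, with 0 at an unadjusted p under 0.05.

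Calls in this comparison depended on single arrays. Leaving 1 out leaves its group with 1 array, which is then assumed to vary like the other groups, here and in the comparisons below of groups of 2. Without LP Treg replicate 1 only Scd1 passed, and without LP Treg replicate 2 Abca1 and Abcg1, 2 of the 6. Without LN CD103-Klrg1- replicate 1, Abca1, Abcg1 and Scd1 passed (3 of the 6), and without LN CD103-Klrg1- replicate 2 Abcg1 alone (1 of the 6). The differences without 1 array ran from -3.11 to -2.16 for Abca1, from -1.32 to -1.07 for Abcg1, from -2.68 to -1.71 for Scd1 and from -1.51 to -1.39 for Scd2. They ran from 0.62 to 0.96 for Elovl6 and from 0.77 to 1.20 for Nsdhl. Elovl6 also lost its call after quantile normalization (adjusted p 0.12 by limma) and with only the groups compared in the fit (adjusted p 0.075), and Nsdhl without the filter (adjusted p 0.054), at differences of 0.79, 0.79 and 0.98. With both dim DEC CD25- arrays out of the fit, 9 genes passed, the same 6 with Cyp51, Idi1 and Msmo1.

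**Figure D4:**
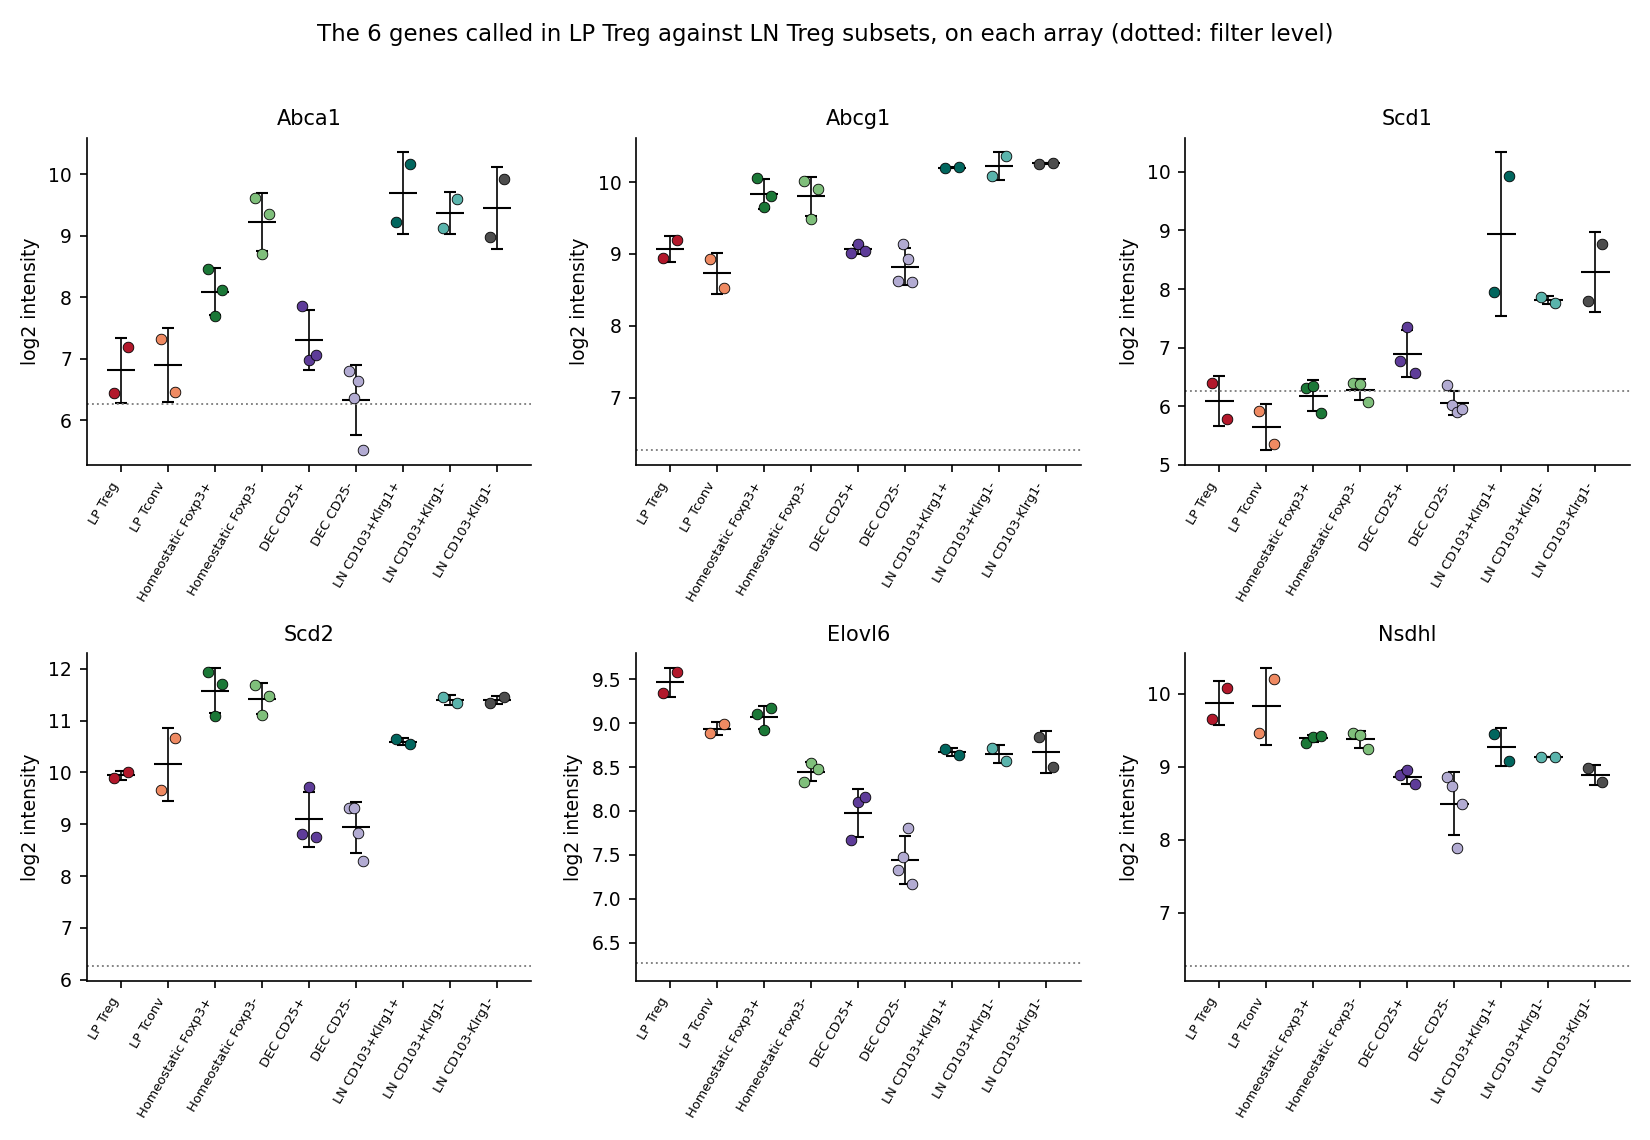
Log2 intensity of the 6 genes that passed the test in LP Treg against LN CD103-Klrg1- cells, on each of the 23 arrays; points are arrays, long bars group means, whiskers the SD, and the dotted line the filter level of 6.27. Abca1, Abcg1, Scd1 and Scd2 are lower on both LP Treg arrays than on both LN CD103-Klrg1- arrays, and Elovl6 and Nsdhl are higher.

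Against LN CD103+Klrg1+ cells 3 of the 30 genes passed, all lower in LP Treg, where 2.05% of all genes tested passed, 0.743% higher and 1.31% lower. They were again Scd1, Abca1 and Abcg1; the LP Treg arrays are the same as above, so this comparison shares them. Scd1 gave 6.40 and 5.79 in LP Treg against 7.95 and 9.92 in LN CD103+Klrg1+ cells, a difference of -2.84 ± 0.46 that is a lower bound in size, at least 7.18-fold lower (adjusted p 0.0016 by limma). The size rested on single arrays: the difference was -1.86 without LN CD103+Klrg1+ replicate 2 and -3.83 without replicate 1. With only the groups compared in the fit Scd1 did not pass (adjusted p 0.079 by limma). The LN CD103+Klrg1+ arrays lay far apart, with an SD of 1.40, against 0.07 in LN CD103+Klrg1- and 0.69 in LN CD103-Klrg1- cells.

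Abca1 gave 6.44 and 7.18 in LP Treg against 9.22 and 10.16 in LN CD103+Klrg1+ cells, 7.36-fold lower, with a difference of -2.88 ± 0.48 (adjusted p 0.0023 by limma). Abcg1 gave 8.94 and 9.20 in LP Treg against 10.20 and 10.20 in LN CD103+Klrg1+ cells, a difference of -1.13 ± 0.22 (adjusted p 0.0067 by limma). The groups did not overlap for either transporter or for Scd1, which 21.5% of all genes tested showed as lower. Of the other genes, Elovl6 had a difference of 0.79 ± 0.21 (adjusted p 0.069), Idi1 of 1.31 ± 0.36 (adjusted p 0.079) and Sqle of 1.24 ± 0.36 (adjusted p 0.11), none of which passed. Of the 16 sterol enzymes, 14 had a difference above 0 and 11 had arrays that did not overlap, higher in LP Treg, against 28.0% of all genes tested; their median was 0.65, against 0.05 for all genes tested, and 0 passed (limma), with 7 at an unadjusted p under 0.05, against 10.5% of all genes tested.

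Without LP Treg replicate 1, or without LN CD103+Klrg1+ replicate 2, only Scd1 passed (1 of the 3), and without LN CD103+Klrg1+ replicate 1 Abca1 and Scd1 passed (2 of the 3). The differences without 1 array ran from -3.35 to -2.41 for Abca1 and from -1.26 to -1.01 for Abcg1. With both dim DEC CD25- arrays out of the fit 7 genes passed, the same 3 with Elovl6, Idi1, Msmo1 and Sqle higher in LP Treg, and after quantile normalization 5 did, the same 3 with Idi1 and Sqle higher in LP Treg.

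**Figure D5:**
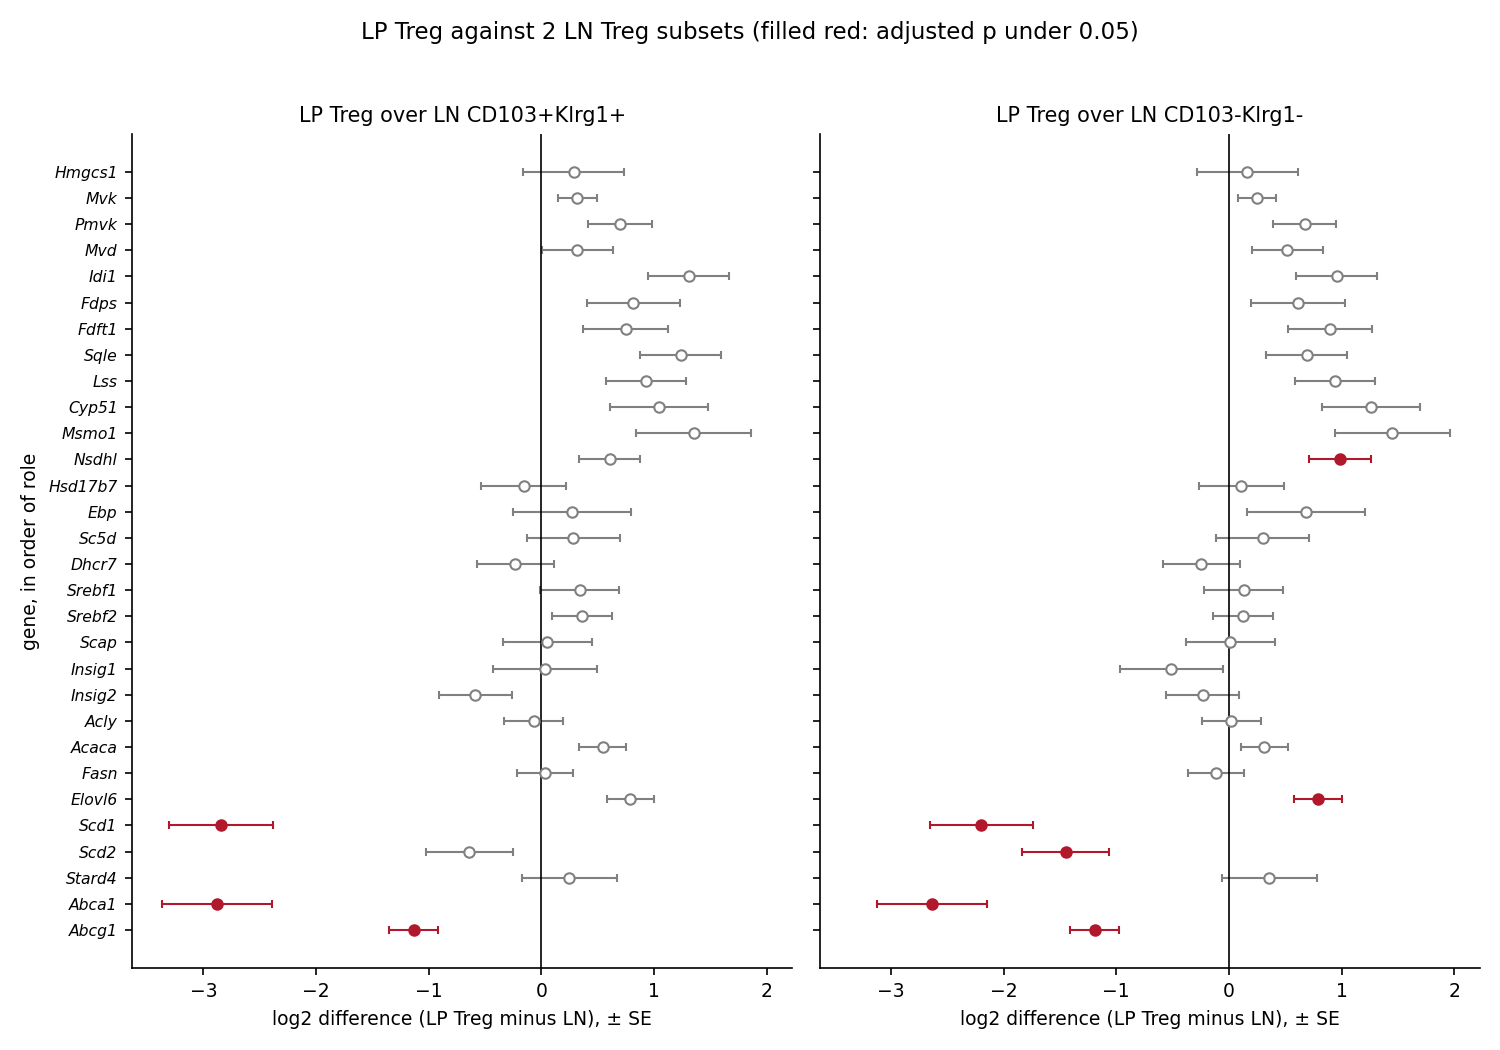
Differences in log2 intensity, LP Treg minus LN CD103+Klrg1+ (left) and LP Treg minus LN CD103-Klrg1- (right), for the 30 genes tested in order of role; points are estimates with the SE, filled red where the adjusted p was under 0.05. Most sterol enzymes lie right of 0 without passing, and Scd1, Abca1 and Abcg1 lie far left in both panels.

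Srebf1 and Fasn, the synthase of palmitate, are known LXR targets like Abca1. Srebf1 gave 7.94 and 8.13 in LP Treg, against 7.88 and 7.50 in LN CD103+Klrg1+ and 8.12 and 7.68 in LN CD103-Klrg1- cells. Fasn gave 8.14 and 8.43 in LP Treg, against 8.43 and 8.08 in LN CD103+Klrg1+ and 8.59 and 8.22 in LN CD103-Klrg1- cells. LP Treg overlapped with LN CD103-Klrg1- cells for both genes. Against LN CD103+Klrg1+ cells both LP Treg arrays were higher for Srebf1, and Fasn overlapped. Neither gene passed the test in either comparison, and LXR targets were not tested as a set. Of the 24 other sterol and lipid genes tested, Mylip alone passed, lower in LP Treg than in LN CD103-Klrg1- cells with a difference of -1.78 ± 0.45 (adjusted p 0.029 by limma), while its difference from LN CD103+Klrg1+ cells was -1.60 ± 0.45 (adjusted p 0.094). This is 1 of 24 genes, where 4.55% of all genes tested passed, so nothing is read from it about the list. Of 9 fatty acid oxidation genes and 25 cell cycle genes tested, 0 passed in either comparison (limma), with 1 and 3 at an unadjusted p under 0.05 against LN CD103-Klrg1- cells and 0 and 0 against LN CD103+Klrg1+ cells.

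Markers of other cells and of RNA quality moved with these comparisons. The summed intensity of 6 B cell markers was 554 and 606 in LP Treg, against 1912 and 3293 in LN CD103+Klrg1+ and 1589 and 1467 in LN CD103-Klrg1- cells. Ms4a1 was the brightest of the list in the LN groups and was lower in LP Treg by at least 17.5-fold and at least 10.5-fold in the 2 comparisons, with a mean of 6.23 under the filter; Cd79a was under the filter in all 9 groups. The summed intensity of 5 CD8 T and NK cell markers was 281 and 350 in LP Treg, against 485 and 1813 in LN CD103+Klrg1+ and 551 and 742 in LN CD103-Klrg1- cells, with Ncr1 under the filter in all 3 groups. Klrd1 of that list, with a mean of 5.33 in LP Treg, was lower there than in LN CD103+Klrg1+ cells by at least 11.1-fold (adjusted p 0.013 by limma). LN CD103+Klrg1+ replicate 2, the array with the Scd1 value of 9.92, held the highest sums of both lists among these arrays.

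The 14 myeloid and dendritic cell markers summed to 1931 and 1626 in LP Treg, against 1174 and 2258 in LN CD103+Klrg1+ and 1268 and 1542 in LN CD103-Klrg1- cells. Cybb of that list was higher in LP Treg than in LN CD103-Klrg1- cells, by 1.82 ± 0.51 (adjusted p 0.048 by limma), and Itgam, Itgax, Xcr1, C1qa and C1qb were under the filter in all 3 groups. Of 6 adipocyte markers, Retn alone was above the filter, and Adipoq, Fabp4, Cidec, Lep and Car3 were under it in all 9 groups, with sums of 255 to 365 over all arrays. Of 10 intestinal epithelial markers, 8 including Vil1, Cdh1, Krt8 and Fabp1 were under the filter in all 3 groups, with sums of 868 and 1046 in LP Treg, against 762 and 963 in LN CD103+Klrg1+ and 842 and 867 in LN CD103-Klrg1- cells. The Actb 3' minus 5' difference was 1.05 and 0.96 log2 units in LP Treg, against 2.05 and 2.01 in LN CD103+Klrg1+ and 2.21 and 1.60 in LN CD103-Klrg1- cells. The part of these markers in the results was not tested, and in bulk samples fewer cells of a type cannot be told apart from less RNA per cell.

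Within the gut, LP Treg were compared with LP Tconv cells of the same tissue. Of the 30 genes, 0 passed (limma), with 2 at an unadjusted p under 0.05, where 2.70% of all genes tested passed and 8.71% had an unadjusted p under 0.05. Lss, given above, had no overlap between LP Treg and LP Tconv and a difference of -0.95 ± 0.36 (adjusted p 0.30 by limma). Elovl6 gave 9.35 and 9.58 in LP Treg against 8.89 and 8.99 in LP Tconv, a difference of 0.52 ± 0.21 (adjusted p 0.37). Sqle, given above, had a difference of -0.63 ± 0.36 (adjusted p 0.77).

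Each of these 3 genes separated the groups on all 4 arrays, which 16.4% of all genes tested showed as higher and 14.5% as lower. Yet the LP Tconv arrays lay far apart for Lss. These 2 arrays also differed in RNA quality, with Actb 3' minus 5' differences of 2.14 and 0.80 log2 units, against 1.05 and 0.96 in LP Treg. Those of Gapdh were 3.17 and 1.63 in LP Tconv and 2.42 and 2.65 in LP Treg. The part of RNA quality in the LP values was not tested. The median difference of the 16 sterol enzymes was -0.11, against -0.01 for all genes tested, with 6 of 16 above 0. Abca1 gave 6.44 and 7.18 in LP Treg and 7.32 and 6.46 in LP Tconv, and Scd1 6.40 and 5.79 in LP Treg and 5.92 and 5.36 in LP Tconv, so their low levels in the gut were found in both sorts. Without LP Tconv replicate 1, Lss and Fdps passed as lower in LP Treg, Lss with a difference of -1.59, against -0.31 without LP Tconv replicate 2.

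Markers of other cells differed between the 2 gut sorts too. The 5 CD8 T and NK cell markers summed to 281 and 350 in LP Treg, against 540 and 614 in LP Tconv, so the groups did not overlap. Klrd1 of that list gave 5.18 and 5.49 in LP Treg against 8.12 and 8.15 in LP Tconv and was lower in LP Treg by at least 6.96-fold (adjusted p 0.044 by limma), while Cd8b1, Ncr1 and Eomes were under the filter in both. Cd8a overlapped, at 6.71 and 7.01 in LP Treg and 6.97 and 6.86 in LP Tconv. The 14 myeloid and dendritic cell markers summed to 1931 and 1626 in LP Treg, against 1342 and 1592 in LP Tconv, with a difference of 1.72 ± 0.51 for Cybb (adjusted p 0.096). The 6 B cell markers summed to 554 and 606 in LP Treg, against 506 and 526 in LP Tconv. The part of these lists in the values was not tested.

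Among the homeostatic progeny, 0 of the 30 genes passed between Foxp3+ and Foxp3- cells (limma), with 4 at an unadjusted p under 0.05, where 1.76% of all genes tested passed and 7.57% had an unadjusted p under 0.05. Elovl6 gave 9.10, 8.92 and 9.18 in Foxp3+ against 8.33, 8.54 and 8.47 in Foxp3- cells, a difference of 0.62 ± 0.17 (adjusted p 0.093 by limma). Mvd gave 7.73, 7.46 and 8.00 in Foxp3+ against 7.31, 6.83 and 6.82 in Foxp3- cells, a difference of 0.74 ± 0.26 (adjusted p 0.26). Abca1 gave 8.46, 7.69 and 8.12 in Foxp3+ against 9.62, 8.70 and 9.35 in Foxp3- cells, a difference of -1.13 ± 0.40 (adjusted p 0.26). Same-numbered arrays, read as pairs on the data alone, were not paired in this fit, so these SE and p-values do not use the pairs. With the replicate number as a block no member call changed here.

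For all 3 genes the groups did not overlap, which 9.38% of all genes tested showed as higher and 12.9% as lower. Of the 16 sterol enzymes, 14 had a difference above 0, with a median of 0.12 against -0.03 for all genes tested. Beside them, all 25 cell cycle genes had a difference above 0, with a median of 0.77 and 0 called (10 at an unadjusted p under 0.05), and 11 of 12 myeloid genes tested had one below 0, with a median of -0.51. The 14 myeloid markers summed to 2702 to 9456 in Foxp3+ and 4636 to 14923 in Foxp3- cells, with Lyz2, Csf1r and Mpeg1 the brightest and Itgam and Xcr1 under the filter in both. The 4 erythroid markers summed to 403 to 2016 in Foxp3+ and 671 to 3236 in Foxp3- cells, with Hba-a1 under the filter. The 5 CD8 T and NK cell markers summed to 1546 to 2676 in Foxp3+ and 3724 to 4267 in Foxp3- cells, without overlap, with Cd8b1 under the filter in both. Klrd1 and Eomes were the brightest of that list in both groups, and Cd8a and Ncr1 overlapped between the groups. Klrd1 of that list was lower in Foxp3+ cells, with a difference of -2.53 ± 0.59 (adjusted p 0.031 by limma). The part of these lists was not tested. With only these 2 groups in the fit, Elovl6 and Abca1 passed, and with array weights 6 genes did, Elovl6, Mvd, Idi1, Cyp51 and Hsd17b7 higher and Abca1 lower in Foxp3+ cells.

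Between DEC CD25+ and DEC CD25- progeny 0 of the 30 genes passed (limma), with 7 at an unadjusted p under 0.05, where 0.495% of all genes tested passed and 14.8% had an unadjusted p under 0.05. Elovl6 gave 7.67, 8.10 and 8.16 in CD25+ against 7.33, 7.47, 7.81 and 7.17 in CD25- cells, a difference of 0.53 ± 0.16 (adjusted p 0.18 by limma). Idi1, given above, had a difference of 0.89 ± 0.27 (adjusted p 0.18), and its groups did not overlap, which 4.47% of all genes tested showed as higher. Ebp, a sterol isomerase, gave 8.88, 10.21 and 9.59 in CD25+ against 8.82, 9.21, 7.30 and 8.00 in CD25- cells, a difference of 1.23 ± 0.40 (adjusted p 0.20).

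The lowest Ebp values came from the dim arrays, CD25- replicates 3 and 4. Of the 16 sterol enzymes 14 had a difference above 0, with a median of 0.24, close to the 0.16 of all genes tested. After quantile normalization 8 of 16 were above 0, with medians of 0.01 for the enzymes and -0.05 for all genes, and without both dim arrays 11 of 16 were, with medians of 0.08 for the enzymes and 0.0045 for all genes. Myeloid markers summed to 2733 to 6393 in CD25+ and 1392 to 3097 in CD25- cells, with Csf1r the brightest and Itgam and Xcr1 under the filter in both; all 12 myeloid genes tested had a difference above 0. The 6 B cell markers summed to 649 to 834 in CD25+ and 458 to 637 in CD25- cells, and the part of either list was not tested. Without DEC CD25+ replicate 1 Elovl6 passed, and without DEC CD25- replicate 1 Idi1 did. With the replicate number as a block, which leaves DEC CD25- replicate 4 out of the estimate, 110 of all genes tested passed instead of 62, and still 0 of the 30.

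Abca1 stood in opposite order in the 2 transfer systems. It gave 7.86, 6.98 and 7.06 in DEC CD25+ against 6.80, 6.36, 6.64 and 5.51 in DEC CD25- cells, while in the homeostatic progeny the Foxp3+ arrays lay below the Foxp3- arrays. The homeostatic minus the DEC difference was -2.11 ± 0.54 (adjusted p 0.13 by limma), so it did not pass. This value ran from -2.37 to -0.68 over 25 alternatives, and the median of all genes tested was -0.20. The Abca1 mean in DEC CD25- cells, 6.32, lay just above the filter of 6.27, and replicate 4, a dim array, gave 5.51. In the same test all 12 myeloid genes lay below 0, with a median of -1.53 and 0 called. Of them 6 had an unadjusted p under 0.05 (limma). The part of myeloid cells in the Abca1 values was not tested. Over the 3 tests of differences between the LP, homeostatic and DEC comparisons, 0 of the 30 genes passed (limma), where 0.775% (LP minus homeostatic), 1.01% (LP minus DEC) and 0.336% (homeostatic minus DEC) of all genes tested did. Scd1 and Mvd followed Abca1 by p in the homeostatic minus DEC test, without passing; the means of Scd1 in Homeostatic Foxp3+ (6.18) and DEC CD25- cells (6.06) and of Mvd in DEC CD25- cells (6.13) lay under the filter, so no difference of differences is given for them. Fdps, Lss and Mvk had the smallest p in the LP minus DEC test, with -0.91 ± 0.45 for Lss and -0.41 ± 0.21 for Mvk (adjusted p 0.55 and 0.56 by limma) and none given for Fdps, whose DEC CD25- mean lay under the filter. Mvd, Sqle and Abca1 had the smallest p in the LP minus homeostatic test, at -0.96 ± 0.41, -0.78 ± 0.46 and 1.05 ± 0.63 (adjusted p 0.73, 1.00 and 1.00 by limma).

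The lymph node Treg subsets, sorted by CD103 and Klrg1, were compared with each other. In each of the 3 comparisons 0 of the 30 genes passed (limma), where 0.0959% (CD103+Klrg1- over CD103-Klrg1-), 0.647% (CD103+Klrg1+ over CD103+Klrg1-) and 2.10% (CD103+Klrg1+ over CD103-Klrg1-) of all genes tested did. At an unadjusted p under 0.05 the counts were 0, 1 and 0, against 2.04%, 3.83% and 6.81% of all genes tested in the same order. Scd1 gave 7.95 and 9.92 in CD103+Klrg1+, 7.86 and 7.76 in CD103+Klrg1- and 7.80 and 8.78 in CD103-Klrg1- cells, with a difference of 1.13 ± 0.46 between the first 2 (adjusted p 0.90 by limma). Its order among the 3 subsets rested on single arrays: without LN CD103+Klrg1+ replicate 1 the difference between the first 2 was 2.11 (adjusted p 0.023 by limma), from 1 array of CD103+Klrg1+ cells, and without replicate 2 it was 0.14 (adjusted p 1.00).

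Scd2 gave 10.64 and 10.54 in CD103+Klrg1+ cells, against 11.46 and 11.33 in CD103+Klrg1- and 11.34 and 11.46 in CD103-Klrg1- cells. The CD103+Klrg1+ arrays lay below both other subsets without passing the test, with differences of -0.81 ± 0.39 each (adjusted p 1.00 and 0.74 by limma). Neither transporter passed, Abca1 with group means of 9.69 ± 0.67, 9.37 ± 0.34 and 9.45 ± 0.67 and Abcg1 of 10.20, 10.22 ± 0.19 and 10.26 in the order CD103+Klrg1+, CD103+Klrg1- and CD103-Klrg1- (SD, n = 2 each). Cell cycle genes stood above 0 in 23 of 25 cases for CD103+Klrg1+ over CD103+Klrg1- cells, with a median of 0.59 and 0 called (3 at an unadjusted p under 0.05), while the 16 sterol enzymes had a median of 0.06. In each subset the array numbered 1 had the higher mean of both lists.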

How the data were processed

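RNA of sorted CD4+ T cells was isolated with Trizol and amplified in 2 rounds with the MessageAmp kit, per the labels' protocols. The deposited values are intensities that the authors made with the RMA algorithm in GenePattern, per the submitters' processing notes and the series' design text; the version is not given in the sources used here. They lie on a linear scale from 4.706 to 26750, and log2 was taken with no pseudocount, so a difference is a log2 fold change of the deposited intensities. RMA on the log2 scale compresses the differences of dim probe sets. Array medians differ, so the deposited columns do not share 1 distribution. The files name no genome build; promoter coordinates are RefSeq's.

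Of 45101 probe sets, 34945 had 1 gene symbol, 932 had several and 9160 had none, beside 64 controls; those without exactly 1 symbol were not used. Of the named ones, 34741 had their Entrez identifier in the gene table, which updated 0 symbols. For the 9010 genes with several probe sets, the one of highest mean log2 stood for the gene. Genes were tested where at least 1 group mean lay above the median of the whole table, 6.27 log2 units (an intensity of 77.0). A gene whose lower group mean lies under this level has a fold change given as a lower bound. The bound refers to the filter level alone and not to the spread between arrays.

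The test was limma's (version 3.58.1, under R 4.3.3): lmFit with 1 mean per group over the 23 arrays, then eBayes, with 14 residual and 3.48 prior degrees of freedom; two-sided p-values were adjusted by Benjamini-Hochberg over the 12516 genes of each comparison, with a call below 0.05. There were 8 comparisons and 3 tests of differences between comparisons. Counts, summaries and plots came from Python 3.11.15 (numpy 2.4.6, pandas 2.3.3, matplotlib 3.10.9). Fits were tested on simulated data with 100 genes changed by 1 and 100 by 2 log2 units. That of LP Treg against LN CD103-Klrg1- cells recovered 36 and 85 with 6 false calls, and that of DEC CD25+ against DEC CD25- cells 62 and 97 with 10. Recovery was lowest at 1 log2 unit for LP Treg against LP Tconv (23 and 92) and LN CD103+Klrg1- against LN CD103-Klrg1- cells (23 and 78). The simulation gave all arrays the same spread for a gene, whereas the estimated array weights ran from 0.13 to 4.56. The number of arrays limits the precision.

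Members and lists were chosen with earlier results of these data known. The text names every called member of a comparison, the 3 of smallest p where fewer than 3 were called, and the anchors Hmgcs1, Sqle, Insig1, Srebf1, Srebf2, Fasn, Scd1, Scd2, Abca1 and Abcg1; from the lists of other sterol and lipid, fatty acid oxidation and cell cycle genes it names called genes, and from the lists of T, B, CD8 T and NK, myeloid, erythroid, adipocyte and intestinal epithelial markers the most abundant and those at the filter level. Names outside this rule are given for their levels.

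Deviations from the group means correlated by 0.66, 0.58 and 0.49 between homeostatic arrays of the same number and by 0.39, 0.51 and 0.38 between DEC arrays, so these numbers were read as pairs, on the data alone; the labels do not say what a number shares. Alternatives were quantile normalization, no filter and a filter 1 log2 unit higher, the mean of a gene's probe sets, only the groups compared, array weights, both dim DEC CD25- arrays left out, the replicate block, and each array left out in turn.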

Additional observations from a re-analysis of the deposited data

Results flagged for a closer look

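In the 1 group of 4 arrays, DEC CD25-, 2 of the 31 measured genes had an array far from the other 3, by a gap over range above 0.829. Chance marks about 1 in 20 such groups. Mvk, the mevalonate kinase, gave 6.34 log2 units on DEC CD25- replicate 3, against 6.77, 6.79 and 6.81 on the other 3 arrays (ratio 0.898). Srebf2, a factor that raises transcription of the sterol enzymes, gave 7.46 on the same array, against 8.30, 8.31 and 8.42 on the other 3 (ratio 0.879). That array is 1 of the 2 dim DEC CD25- arrays and had the largest Gapdh 3' over 5' excess, 6.59 log2 units; the part of either in these values was not tested.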

How the results depend on the processing

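Over 36 results for the named members and their 562 alternative values, 519 kept direction and side of the threshold, 28 lost a call, 13 gained one and 2 changed sign; the causes were not tested. The sign changes were Scd1 in LN CD103+Klrg1- over CD103-Klrg1- cells, with 0.0070 without LN CD103-Klrg1- replicate 2, in a range of -0.97 to 0.0070 when single arrays were left out, and Scd1 in LN CD103+Klrg1+ over CD103-Klrg1- cells, with -0.34 without LN CD103+Klrg1+ replicate 2, in a range of -0.34 to 1.63; neither difference was called. Members called in Homeostatic Foxp3+ over Foxp3- cells were 2 with only the groups compared, 6 with array weights and 1 with both dim DEC CD25- arrays out, against 0. With array weights 1 member was called in DEC CD25+ over CD25- cells (Elovl6), 1 over the 3 tests of differences (Abca1), 10 in LP Treg over LN CD103-Klrg1- cells, against 6, and 8 in LP Treg over LN CD103+Klrg1+ cells, against 3, where quantile normalization gave 5 and leaving both dim arrays out gave 7. When each array was left out in turn, member calls ranged from 0 to 2 in LP Treg over LP Tconv, 0 to 1 in DEC CD25+ over CD25-, 0 to 1 in LN CD103+Klrg1+ over CD103+Klrg1-, 1 to 3 in LP Treg over either LN subset, and 0 to 1 over the tests of differences (Fdps without LP Tconv replicate 1). Abca1 in LP Treg over LN CD103-Klrg1- cells ranged from -3.11 to -0.95 over 12 alternatives, the smallest with the mean of its probe sets, and was called in 10, with adjusted p of 0.00017 to 0.073 by limma.

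Calls over all genes moved by more than 1.5 times in several comparisons. In LP Treg over LP Tconv 338 genes were called, 17 with only the groups compared, 221 with array weights and 557 with both dim arrays out. In the homeostatic comparison the counts were 220, 741, 1236 and 435 in the same order, and in the DEC comparison 62, 5, 193 and 53. In LP Treg over LN CD103-Klrg1- cells they were 570, 1006, 1494 and 1082, and over LN CD103+Klrg1+ cells 257, 278, 648 and 448. Among the LN subsets, array weights gave 99 genes against 12, 264 against 81 and 599 against 263, and leaving both dim arrays out gave 28, 134 and 398.

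With the replicate number as a block, 4 members were called in LP Treg over LN CD103-Klrg1- cells (Abca1, Abcg1, Scd1 and Scd2, without Elovl6 and Nsdhl) and the same 3 in LP Treg over LN CD103+Klrg1+ cells; the block changed no other member call. With only the groups compared 3 members passed in the second comparison, Abca1, Abcg1 and Msmo1, without Scd1 (adjusted p 0.079 by limma). In the first comparison Elovl6 was called in 5 of 12 alternatives and Nsdhl in 6 of 12. It gave 530 calls over all genes in the 3 tests of differences, against 265. LP and LN arrays share 2 numbers only, with correlations of -0.02 between LP Treg and either LN subset, and -0.07 between LP Treg and LP Tconv. Same-numbered LN arrays correlated by 0.72 (CD103+Klrg1+ with CD103-Klrg1-), 0.39 (CD103+Klrg1- with CD103-Klrg1-) and 0.37 (CD103+Klrg1+ with CD103+Klrg1-). These LN correlations lay near or above those of the DEC arrays, which were read as pairs. With 2 numbers a group, the LP and LN numbers were not read as pairs, and the labels do not say what they share. The SE and p-values among the LN subsets therefore use no pairing.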
